A study of Mus musculus with 4 samples.

Results

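The genes examined here were the signalling machinery of the T cell receptor (TCR): kinases at the receptor, the scaffolds and adaptors that they phosphorylate, the enzymes and transcription factors downstream, and the phosphatases, ubiquitin ligases and lipid kinases that limit the signal. They were chosen by name, from what each gene is known to do and not from a measured value. Earlier results of these data were, however, known when they were chosen. The list comprised 40 of the 27376 gene names on the array. RNA was measured in CD8αβ+ intraepithelial lymphocytes (IELs) from the small intestine and in CD8αβ+ splenocytes (SPLs), with 2 samples per group and 1 Agilent one-color array per sample. All mice were wild type (WT), male and 8 to 12 weeks old, none had a treatment named in the labels, and the strain was not given in the labels. Cells that were positive for CD45, CD3, CD8α, CD8β and TCRβ were sorted and lysed without stimulation, and each sample was sorted from pooled mice. Whether the 2 samples of a group shared mice was not stated, so the p-values measure only the spread between these samples.

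When a T cell receptor meets its ligand, the kinase Lck phosphorylates the CD3 chains, Zap70 binds to them, and Zap70 then phosphorylates the scaffolds Lat and SLP-76 (encoded by *Lcp2*). On these scaffolds phospholipase C-γ1, Vav1, Ras activators and other enzymes assemble, and calcium, diacylglycerol and Ras carry the signal on to the factors of the NFAT, NF-κB and AP-1 families. Phosphatases such as SHP-1 (*Ptpn6*) and Lyp/PEP (*Ptpn22*), the Cbl ubiquitin ligases and the diacylglycerol kinases reduce the signal, and CD8αβ+ IELs are known as antigen-experienced cells that remain in the epithelium.

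A level here is the log2 of a probe's intensity minus the 75th percentile of the array, and a difference or log2 fold change is IELs minus SPLs on that scale. Levels of different probes cannot be set against each other. As a check of the sorted cell type, all 10 T cell genes listed (the CD3 chains, *Cd8a*, *Cd8b1*, *Thy1*, *Cd2*, *Cd5* and *Cd6*) were well above background on all 4 arrays. Their summed level lay between 896.9 and 999.6 times the 75th percentile. Single genes were less alike, with 5 of the 10 lowest and 5 highest in IEL replicate 1. Without *Cd8b1*, the brightest, the sums ran from 619.8 in SPL replicate 2 to 831.0 in IEL replicate 1. The probe of *Cd4*, which marks the other main class of T cells, was also well above background on all 4 arrays, at levels between -3.35 and -3.02.

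The 2 IEL samples were unlike each other. Over 27917 probes, IEL replicate 2 correlated with SPL replicate 1 at r = 0.992 and with IEL replicate 1 at r = 0.946, and the 2 SPL samples correlated at r = 0.986. The summed level of 12 B cell genes was 4.12 in IEL replicate 1, 27.3 in IEL replicate 2, and 34.3 and 27.4 in SPL replicates 1 and 2. Neutrophil genes summed to 0.224 in IEL replicate 1 and to between 35.8 and 50.01 in the other samples, and erythroid genes to 1.08 against 75.2 to 115.9. Paneth cell genes went the other way, with 913.2 in IEL replicate 1, 30.1 in IEL replicate 2 and 10.2 to 18.5 in the SPLs, as did those of other epithelial cells (27.1, 5.55, and 0.708 to 2.30) and goblet cells (39.0, 4.55, and 0.312 to 1.64). NK cell genes summed to between 2.57 and 4.27, most of it from *Eomes*. Without *Eomes* the sum was 0.702 in IEL replicate 1, 1.23 in IEL replicate 2, and 1.35 and 1.16 in the SPLs. Of the 5 NK cell genes, 4 were lowest in IEL replicate 1, and 1, *Klrb1c*, was highest there. Genes of CD4 and γδ T cells summed to between 0.249 and 0.564. Myeloid genes summed to between 36.6 and 48.5, most of it from *Lyz2*, and without *Lyz2* to 1.17 in IEL replicate 1 and to 8.59, 11.0 and 5.10 in IEL replicate 2 and SPL replicates 1 and 2, with 8 of the 10 genes lowest in IEL replicate 1. Of the defining B cell genes, *Ms4a1*, *Pax5*, *Ebf1* and *Cr2* were not well above background in IEL replicate 1, and *Pax5* was not in SPL replicate 1 either. The part of these cells in the differences below was not tested. In such bulk samples, fewer cells of a type and less RNA per cell cannot be told apart. Both groups were present on each slide: slide 1 carried the arrays of IEL replicate 1 and SPL replicate 2, and slide 2 those of IEL replicate 2 and SPL replicate 1. Therefore the results are given with all samples, without IEL replicate 2 and within each slide.

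**Figure D1:**
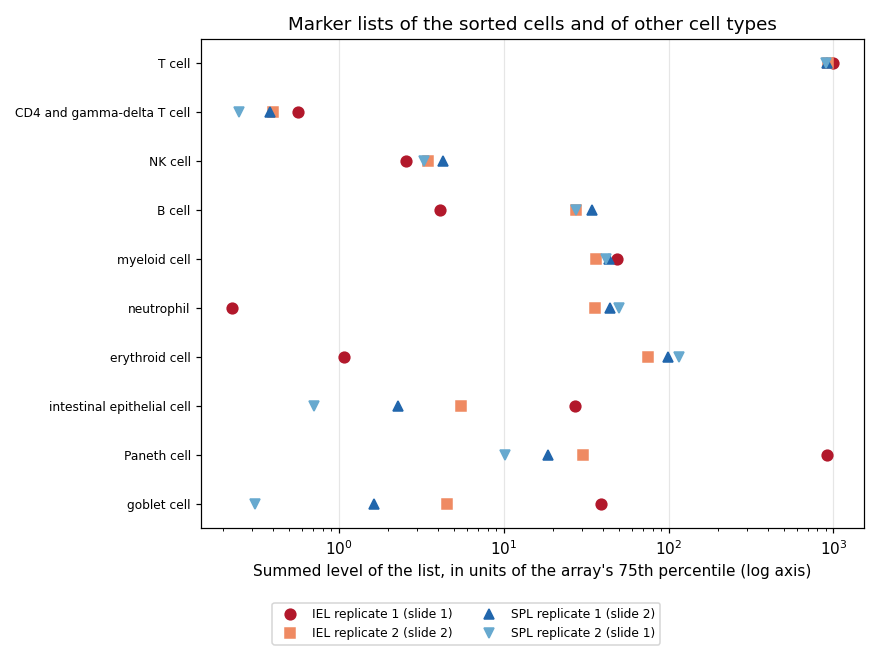
Summed level of each list of marker genes on each array, in units of the array's 75th percentile on a log axis, with 1 symbol per array. The T cell lists of the 4 arrays lie between 896.9 and 999.6, whereas the B cell, neutrophil and erythroid sums of IEL replicate 2 lie beside those of the SPLs and those of IEL replicate 1 lie lower.

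All 40 genes were well above background on all 4 arrays. In the comparison of the 2 groups over 27942 probes, limma called 0 of the 40 at an adjusted p of 0.05 (background 0% of all probes in either direction), and the adjusted p-values of the 40 genes ran from 0.634 to 0.998. At an unadjusted p of 0.05, limma gave 1 gene as higher in IELs, *Sh2d2a* (background 4.63%), and 0 as lower (background 1.1%). The methods' unpaired test gave 0 genes in either direction, both before and after adjustment. Levels were nominally higher in IELs for 23 genes and lower for 17, with a median log2 fold change of 0.04 against -0.000548 over all tested probes, and 49.9% of those probes were above 0. The median size of the difference, without its sign, was 0.31 among the 40 genes and 0.32 among all tested probes. Only 3 of the 40, *Sh2d2a*, *Ptpn22* and *Dgka*, differed by at least 1 on the log2 scale, where the share of all tested probes was 12.9%, and 11 differed by less than 0.1 (background 17.5%).

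Both IEL samples lay above both SPL samples for 11 genes (background 24.4% of all probes) and below them for 11 genes (background 24.6%), and the groups overlapped for 18. An exact permutation test of 2 against 2 samples cannot go below a two-sided p of 0.33, so the absence of overlap carries no significance here. The differences were larger on slide 1 than on slide 2. Their median size was 0.53 on slide 1 and 0.11 on slide 2 (0.51 and 0.17 over all tested probes). On slide 1, 2 genes were at least 2-fold higher in IELs (background 11.8%) and 6 at least 2-fold lower (background 13.7%), and on slide 2 there were 0 in either direction (background 2.47% and 0.73%). On both slides together, 0 genes were at least 2-fold higher or lower (background 1.79% and 0.312%). The sign was the same on both slides for 33 of the 40 genes (background 71.7%). The IEL replicates lay further apart than the SPL replicates for 28 genes (background 71%).

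Without IEL replicate 2, limma called 7 of the 40 genes. *Sh2d2a* and *Ptpn22* were higher in IEL replicate 1 than in the SPLs (2 genes, background 9.13% of all probes), and *Dgka*, *Prkcq*, *Ptpn6*, *Dgkz* and *Cblb* were lower (5 genes, background 10.3%). This fit leaves a single IEL array, whose spread is taken to be that of the 2 SPL arrays, with 1 residual degree of freedom. Without IEL replicate 1, limma called 0 of the 40 (background 0% in either direction).

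**Figure D2:**
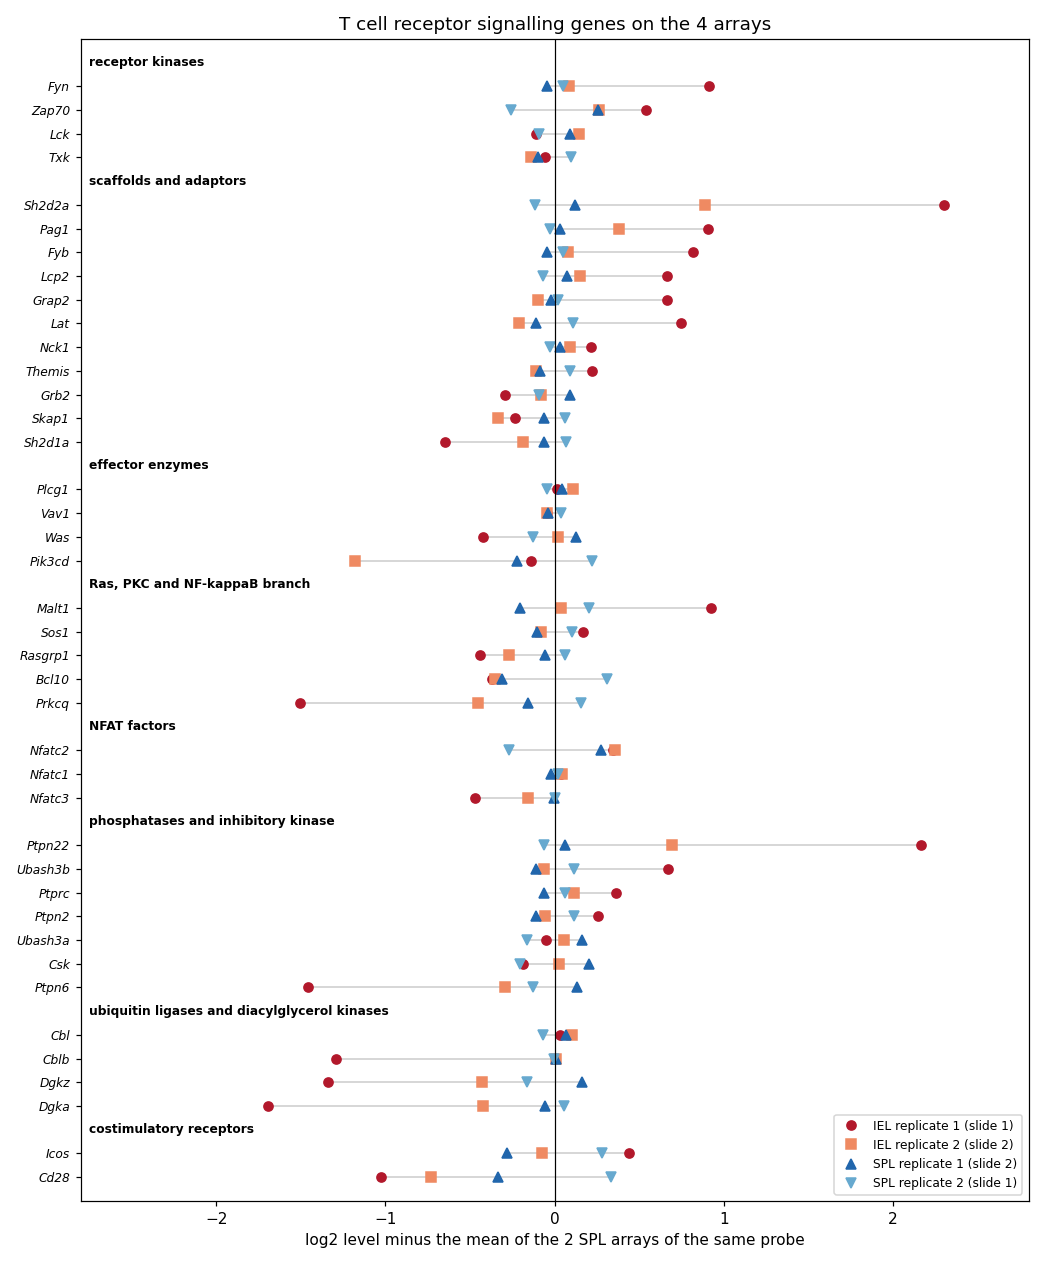
Level of each of the 40 genes on the 4 arrays, as the log2 difference from the mean of the 2 SPL arrays of the same probe, with the genes grouped by role and ordered within a role by log2 fold change. IEL replicate 1 (red circles) lies far from the SPLs for *Sh2d2a* and *Ptpn22* on the high side and for *Dgka*, *Prkcq*, *Ptpn6*, *Dgkz* and *Cblb* on the low side, and IEL replicate 2 (orange squares) lies closer to 0 for each of these 7 genes.

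Several of the 40 genes are read by more than 1 probe, and probe sequences are shown here for the genes whose probes differed most in log2 fold change, *Sos1*, *Cblb*, *Grap2*, *Pag1* and *Ptpn6*, since the value of a gene then depends on which stretch of its transcript is read. Each probe has 60 bases, of which the first 30 are printed in the order in which the array annotation lists them, with positions from that annotation on mm9. For *Cblb*, the brighter probe lay at chr16:52050919-52050978 and the other at chr16:52120279-52120338, both on the plus strand. For *Grap2*, the brightest probe lay at chr15:80482962-80483021 and the others at chr15:80479094-80479153 and chr15:80479781-80479840, all on the plus strand. For *Pag1*, the brightest probe, at chr3:9827447-9827506, and the probe with the lowest log2 fold change, at chr3:9688396-9688455, are shown, both on the minus strand. For *Sos1*, the brighter probe lay at chr17:80797187-80797246 and the other at chr17:80793312-80793371, on the minus strand. For *Ptpn6*, the brightest probe lay at chr6:124671114-124671173 and the second brightest at chr6:124682988-124683047, on the minus strand. No part of these runs is in capitals, because no motif was searched for in them.
Cblb, brighter probe: atctgacttttacgtgttccaaagaaacct
Cblb, other probe: ggaagtgcctactgaaaaccggaattgtat
Grap2, brightest probe: gaatgatattgtgtttctctaaggtgaaaa
Grap2, second probe: gggggtaaagctgaactttataatgacaca
Grap2, dimmest probe: tggcttacttgaatgtaacttgtttcctgg
Pag1, brightest probe: gctgttagggataagccgctccatacaatt
Pag1, lowest probe: tgtaaaggaagactatgaactcaaaggtta
Sos1, brighter probe: atcattaaagggatggaaaacagtctaatg
Sos1, other probe: taccttatatagcctataagtgtgttattt
Ptpn6, brightest probe: cggtcggcagacaaggagaagaacaaaggt
Ptpn6, second probe: ctagagtttgtacgtgcctgcccagacaaa

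Of the 4 kinases at the receptor, limma called 0 with or without IEL replicate 2, and 3 were nominally higher in IELs. *Lck*, the kinase bound to the CD8 tail that starts the cascade, had a level of 5.91 and 6.17 in IEL replicates 1 and 2 and of 6.11 and 5.93 in SPL replicates 1 and 2. The groups overlapped, and the log2 fold change was 0.02 with a 95% interval from -0.65 to 0.68. A difference of up to about that size in either direction is therefore not excluded. *Zap70*, the kinase recruited to the phosphorylated CD3 chains, was at 4.78 and 4.50 in the IELs and 4.49 and 3.98 in the SPLs. Its groups did not overlap, but IEL replicate 2 and SPL replicate 1, on the same slide, differed by only 0.01, and the log2 fold change was 0.40 (interval -0.40 to 1.20). *Fyn*, the other Src family kinase of T cells, was at 2.73 and 1.91 in the IELs and 1.78 and 1.87 in the SPLs. IEL replicate 1 alone stood high, with a difference of 0.86 on slide 1 and 0.13 on slide 2. *Txk*, a Tec family kinase, differed by -0.10 with overlapping groups.

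Among the 11 scaffolds and adaptors the median log2 fold change was 0.27, and 8 were nominally higher in IELs (background 49.9%). *Sh2d2a* encodes TSAd, an adaptor that binds Lck and is made when T cells are activated, and its probe lay at chr3:87655756-87656006 on mm9. It was at 1.29 and -0.12 in the IELs and at -0.89 and -1.13 in the SPLs. Both IEL samples lay above both SPL samples, by 2.42 on slide 1 and 0.77 on slide 2. The log2 fold change was 1.59 ± 0.53 (SE; adjusted p = 0.634 by limma), a 3.02-fold higher level, and without IEL replicate 2 it was 2.30 ± 0.26 (SE; adjusted p = 0.0115). This was the largest difference among the 40 genes in both fits.

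*Pag1*, the membrane adaptor that holds the inhibitory kinase Csk near Lck, was at 3.59 and 3.06 in the IELs and 2.71 and 2.65 in the SPLs with its brightest probe. Both IEL samples were higher, with a log2 fold change of 0.64, but its 3 other probes gave 0.23, -0.21 and -0.36. The brightest probe lay at chr3:9827447-9827506 on mm9, away from the others, which lay between 9688396 and 9696143 on the same chromosome. *Fyb*, which encodes the adaptor ADAP that links the receptor to integrins, was at 6.56 and 5.82 in the IELs and 5.70 and 5.79 in the SPLs. *Lcp2* was at 4.27 and 3.76 in the IELs and 3.68 and 3.54 in the SPLs. For both genes IEL replicate 1 stood apart and IEL replicate 2 lay just above the SPLs, with log2 fold changes of 0.45 and 0.41.

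*Lat*, the scaffold on which the phospholipase and Ras activators assemble, was at 6.09 and 5.13 in the IELs and at 5.23 and 5.45 in the SPLs. IEL replicate 1 was the highest sample and IEL replicate 2 the lowest, so the sign turned between slides (0.64 on slide 1 and -0.10 on slide 2), with a log2 fold change of 0.27 and an interval from -0.81 to 1.35. *Grap2*, which encodes Gads, the adaptor between Lat and SLP-76, likewise differed by 0.28 with overlapping groups at its brightest probe. At its 2 other probes, printed above, both IEL samples were above both SPL samples, with log2 fold changes of 1.32 and 0.76. The array annotation gives a RefSeq transcript of *Grap2* for these 2 probes and none for the brightest, so the value used may not stand for that transcript. Without IEL replicate 2 these 2 probes passed the threshold of limma, at 2.15 and 1.31, and the brightest probe did not, at 0.66.

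Of the remaining adaptors, *Sh2d1a*, which encodes SAP, the adaptor of the SLAM receptors, was at 0.91 and 1.37 in the IELs and 1.49 and 1.62 in the SPLs. *Skap1*, a partner of ADAP, was at 4.86 and 4.76 in the IELs and 5.03 and 5.16 in the SPLs. Both were lower in both IEL samples, with log2 fold changes of -0.42 and -0.28, and neither was called in either fit. *Skap1* differed by nearly the same amount on both slides, -0.30 and -0.27. *Nck1*, an adaptor to the actin cytoskeleton, differed by 0.15 without overlap at its brightest probe. Its other probes gave -0.05 with overlap and -0.41, where both IEL samples lay below both SPL samples. *Themis* (0.05), which tunes receptor signals in developing T cells, and *Grb2* (-0.19), the adaptor of the Ras activator Sos1, overlapped.

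The effector enzymes at the scaffold differed by small amounts apart from *Pik3cd*. *Plcg1*, the phospholipase that makes the calcium and diacylglycerol signals, differed by 0.06 (interval -0.55 to 0.67), and *Vav1*, the exchange factor for Rac, by -0.05 (interval -0.65 to 0.56). *Was*, which drives actin assembly, differed by -0.20 with overlapping groups. *Pik3cd*, the p110δ catalytic subunit of PI3 kinase in leukocytes, is described because, as was seen from its values, it went against the general pattern. It was at 4.94 and 3.91 in the IELs and at 4.86 and 5.31 in the SPLs, so that IEL replicate 2 and not IEL replicate 1 stood apart. Its difference was -0.36 on slide 1 and -0.96 on slide 2, which was the largest difference on slide 2 among the 40 genes, and its other probe differed by -0.02.

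In the Ras, PKC and NF-κB branch, 3 of 5 genes were nominally lower in IELs without overlap (background 24.6%). *Prkcq* encodes protein kinase C-θ, the diacylglycerol-responsive kinase of the T cell synapse that leads to NF-κB. It was at 3.27 and 4.32 in the IELs and at 4.61 and 4.93 in the SPLs. IEL replicate 1 was far below the SPLs and IEL replicate 2 slightly below, with differences of -1.66 on slide 1 and -0.29 on slide 2. The log2 fold change was -0.98 ± 0.43 (SE; adjusted p = 0.634 by limma), which was -1.50 without IEL replicate 2 (adjusted p = 0.0282). All 3 probes of *Prkcq* gave alike values, from -0.98 to -1.22, although the groups overlapped at the dimmest of them.

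*Bcl10*, which with Malt1 and Carma1 links PKC-θ to NF-κB, was at 2.96 and 2.98 in the IELs and 3.02 and 3.65 in the SPLs. *Rasgrp1*, the Ras activator that binds diacylglycerol, was at 3.13 and 3.30 in the IELs and 3.52 and 3.63 in the SPLs. *Rasgrp1* was lower in the IELs on both slides (-0.50 and -0.21), whereas for *Bcl10* SPL replicate 2 was high and the other 3 samples were close to each other. Both had a log2 fold change of -0.36, and the second probe of *Rasgrp1* gave 0.15. *Malt1*, the protease of the same complex as Bcl10, differed by 0.48 at one probe and by -0.44 at the other. *Sos1*, the second Ras activator, differed by 0.04 at its brighter probe and by -1.41 at a dim probe that was well above background on 3 of the 4 arrays. At the dim probe the IELs were at -7.02 and -4.95 and the SPLs at -4.71 and -4.44. Its value thus rested on IEL replicate 1, and the difference on slide 2 was -0.24.

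**Figure D3:**
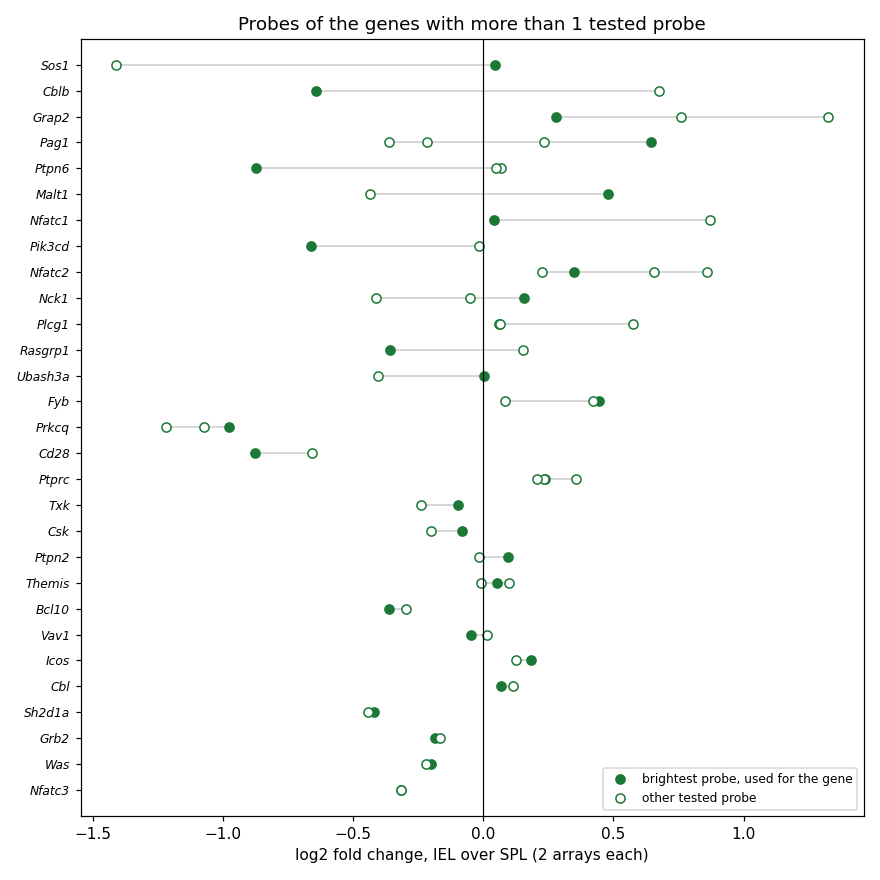
Log2 fold change of every tested probe of the 29 genes with more than 1 tested probe, ordered by the spread between probes, with the brightest probe filled. All tested probes of a gene shared a sign for 18 of the 29 genes, and *Sos1*, *Cblb*, *Grap2* and *Pag1* had the widest spread.

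The NFAT factors, which calcium signals move to the nucleus, did not overlap between groups at their brightest probes, 2 higher and 1 lower in IELs (background 24.4% and 24.6%), and the value depended on the probe for *Nfatc1* and *Nfatc2*. *Nfatc2*, a factor already present in resting T cells, was at -1.55 and -1.54 in the IELs and at -1.62 and -2.17 in the SPLs. SPL replicate 2 was the low sample and the other 3 were close to each other. At 0.35 its log2 fold change was small, and its 4 probes ran from 0.23 to 0.86, all without overlap. *Nfatc3* was at 3.76 and 4.08 in the IELs and at 4.23 and 4.24 in the SPLs, lower by 0.47 on slide 1 and by 0.16 on slide 2, and its 2 tested probes gave log2 fold changes of -0.31 and -0.32. *Nfatc1*, which is induced by receptor signals, differed by 0.04 at its brighter probe and by 0.87 at the other, where the IELs were at 3.18 and 2.11 and the SPLs at 1.84 and 1.71. That second probe passed the threshold without IEL replicate 2, at 1.41.

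**Figure D4:**
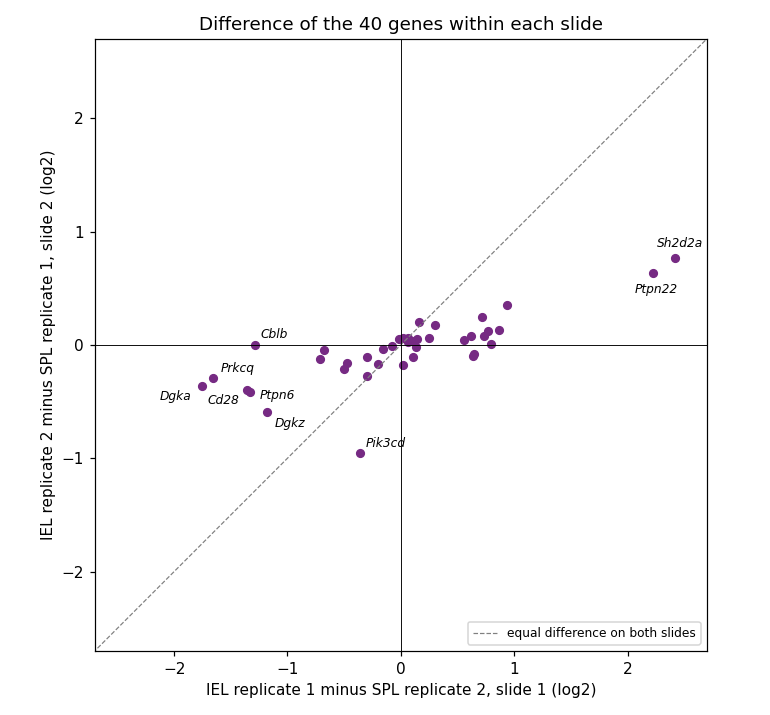
Difference between IELs and SPLs for each of the 40 genes within slide 1 (horizontal axis, log2) and within slide 2 (vertical axis, log2), with genes named that differ by at least 1 on slide 1 or 0.5 on slide 2. The points lie close to the horizontal axis, with a median size of 0.53 on slide 1 and 0.11 on slide 2, and *Pik3cd* is the gene that lies furthest from it.

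Of the 11 phosphatases, inhibitory kinase, ubiquitin ligases and diacylglycerol kinases, limma called 0 with all samples, and without IEL replicate 2 it called 1 as higher (background 9.13%) and 4 as lower (background 10.3%). Whether this group differs from other genes was not tested. *Ptpn22* encodes a phosphatase that removes the activating phosphates of Lck and Zap70 and works together with Csk. It was at 7.03 and 5.56 in the IELs and at 4.93 and 4.81 in the SPLs. Both IEL samples were clearly above the SPLs, by 2.22 on slide 1 and 0.63 on slide 2. The log2 fold change was 1.43 ± 0.55 (SE; adjusted p = 0.634 by limma), a 2.69-fold higher level, and without IEL replicate 2 it was 2.16 ± 0.24 (SE; adjusted p = 0.0117).

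*Ptpn6* encodes SHP-1, a phosphatase that inhibitory receptors recruit and that B cells and myeloid cells also express. It was at 2.99 and 4.16 in the IELs and at 4.58 and 4.32 in the SPLs, so IEL replicate 1 stood low and IEL replicate 2 lay slightly below the SPLs. Its log2 fold change was -0.87, and -1.46 without IEL replicate 2 (adjusted p = 0.0280 by limma), but its 2 other probes gave 0.07 and 0.05, with overlapping groups. The sums of B cell genes and of myeloid genes without *Lyz2*, given above, were also lowest in IEL replicate 1, and their part in the *Ptpn6* value was not tested.

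The other genes of this group showed less. *Ptprc*, which encodes CD45, the phosphatase that keeps Lck active and the marker used in the sort, differed by 0.24 without overlap, and its 4 probes lay between 0.21 and 0.36. *Csk*, the kinase that inhibits Lck, differed by -0.08 (interval -0.81 to 0.65). *Ptpn2*, a phosphatase of Lck and of cytokine signals, differed by 0.10, and *Ubash3a* and *Ubash3b*, the Sts proteins that act on Zap70, differed by 0.00 and 0.30, all with overlapping groups. The median over these 7 genes was 0.10.

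Both diacylglycerol kinases, which remove the lipid that activates Rasgrp1 and PKC-θ, were lower in both IEL samples. *Dgka* was at 4.53 and 5.80 in the IELs and at 6.17 and 6.28 in the SPLs. Its differences were -1.75 on slide 1 and -0.37 on slide 2, and its log2 fold change of -1.06 ± 0.49 (SE; adjusted p = 0.634 by limma) was the lowest of the 40 genes. Without IEL replicate 2 it was -1.70 (adjusted p = 0.0182).

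*Dgkz* was at 0.85 and 1.76 in the IELs and at 2.35 and 2.03 in the SPLs. Its difference of -0.59 on slide 2 was larger than that of *Dgka*, and on slide 1 it was -1.18. It had a log2 fold change of -0.88, and of -1.34 without IEL replicate 2 (adjusted p = 0.0372 by limma). Both genes had 1 probe each.

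Of the ubiquitin ligases, *Cblb*, which raises the threshold of T cell activation, is described because it passed the threshold without IEL replicate 2, although its groups overlapped. At its brighter probe it was at 0.97 in IEL replicate 1, at 2.27 in IEL replicate 2, and at 2.27 and 2.26 in the SPLs. One sample was thus low and the other 3 were alike, with a log2 fold change of -0.64 that became -1.29 without IEL replicate 2 (adjusted p = 0.0298 by limma). At its other probe, printed above, the direction was the opposite: the IELs were at -2.51 and -3.06 and the SPLs at -3.42 and -3.50, with a log2 fold change of 0.68. The array annotation gives no RefSeq transcript for either probe of *Cblb*. *Cbl*, the related ligase, differed by 0.07 (interval -0.55 to 0.68).

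Of the 2 costimulatory receptors, *Cd28*, which provides the classic second signal, was at 0.92 and 1.21 in the IELs and at 1.61 and 2.28 in the SPLs. Both IEL samples were lower, and unlike in most of the 40 genes the IELs were closer to each other than the SPLs were. The log2 fold change was -0.88 ± 0.33 (SE; adjusted p = 0.634 by limma; interval -1.77 to 0.02). Without IEL replicate 2 the log2 fold change at this probe was -1.02. The second probe of *Cd28* gave -0.66 with overlapping groups, and -1.42 without IEL replicate 2. *Icos*, the inducible relative of Cd28, differed by 0.18 with overlapping groups.

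A list of 102 other genes of the pathway was set beside these 40, and 100 of them had a tested probe. Their median log2 fold change was 0.01, with 52 above and 48 below 0. Both IEL samples lay above both SPL samples for 29 and below them for 31 of the 100 (background 24.4% and 24.6%). With all samples limma called 0 of the 100 and gave 5 higher (background 4.63%) and 1 lower (background 1.1%) at an unadjusted p of 0.05, where the methods' unpaired test gave 1 and 4 unadjusted and 0 after adjustment. Without IEL replicate 2, 9 were higher (background 9.13%) and 6 lower (background 10.3%) of the 100, so that the share of higher genes was near that of all probes and the share of lower genes under it.

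The largest positive value among the genes without overlap was that of *Rnf128*, which encodes GRAIL, a ubiquitin ligase of T cell anergy. It was at -0.72 and -2.20 in the IELs and at -3.47 and -4.98 in the SPLs, with a log2 fold change of 2.77. Its intensity was low, from 189 units in IEL replicate 1 to 19.1 units in SPL replicate 2. *Pik3r1*, which encodes the regulatory subunits of PI3 kinase, followed at 4.58 and 3.34 in the IELs and 2.65 and 1.85 in the SPLs (log2 fold change 1.71). Both genes were higher in the IELs on each slide, although the 2 SPL samples were also apart. *Ptprj*, the receptor phosphatase CD148, was at 0.59 and -0.43 in the IELs and -0.86 and -1.72 in the SPLs (log2 fold change 1.37). *Rnf128*, *Pik3r1* and *Ptprj* each fell in the order IEL replicate 1, IEL replicate 2, SPL replicate 1, SPL replicate 2. Of the 40 genes, *Sh2d2a*, *Ptpn22*, *Pag1*, *Zap70*, *Lcp2* and *Nck1* did so too with the probe used. The summed Paneth, other epithelial and goblet cell genes, given above, fell in the same order, and the part of such cells in these values was not tested.

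The lowest values were those of *Cd2ap*, *Rcan3* and *Mapk8*. *Cd2ap*, an adaptor of the CD2 tail, was at -1.33 and 2.31 in the IELs and at 2.62 and 2.76 in the SPLs, so its log2 fold change of -2.19 rested on IEL replicate 1. *Rcan3*, a regulator of calcineurin, was at -2.56 and -0.76 in the IELs and -0.37 and -0.43 in the SPLs (log2 fold change -1.26). Again a single low sample carried most of the difference. *Mapk8*, the stress kinase JNK1, was at -0.45 and 0.76 in the IELs and 0.88 and 1.82 in the SPLs (log2 fold change -1.19). The difference on slide 2 was -0.11, and without IEL replicate 2 limma called *Cd2ap* and *Rcan3* but not *Mapk8* (adjusted p = 0.0597).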

How the data were processed

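RNA of CD8αβ+ IELs and CD8αβ+ SPLs, 2 samples per group as the labels group them, was hybridized to 1 Agilent one-color whole mouse genome array per sample. The deposited scanner files hold a background-subtracted intensity for each of 45018 spots, not normalized between arrays; the labels name Agilent Feature Extraction 10.7.1.1 and the file headers 10.7.3.1. A second table deposited by the authors gives log2 values that were equalized between arrays, and it served as an alternative. PrimeView chips are the platform named in the study's methods, whereas all files are of Agilent arrays.

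The log2 intensity of each of 43379 non-control spots was scaled by subtracting the array's 75th percentile (312 and 435 units for the IELs, 479 and 605 for the SPLs). Spots with an outlier mark (98 to 179 per array) were left out, no spot was saturated (0 per array), and repeat spots were averaged, giving 41174 probes. Between 63.6% and 69.6% of probes per array were well above background, and a probe was tested when this held on every array of a group. With 2 arrays per group, each SE rests on the spread between so few arrays. The comparison of IELs with SPLs used limma 3.58.1 (R 4.3.3), two-sided, with Benjamini-Hochberg adjustment over all 27942 tested probes and a threshold of 0.05. The script was tested on simulated data. A gene was represented by its brightest tested probe. Slides were read from the slide barcodes of the scanner files, and figures were drawn with matplotlib 3.10.9.

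The 40 genes, the list of 102 other pathway genes and the marker lists were chosen with earlier results of these data known. Values on all arrays are given for up to 18 of the 40 genes whose groups did not overlap, in order of the size of the difference, and for Lck, Zap70 and Lat; of the other pathway genes, the 3 highest and 3 lowest without overlap are named. Symbols and mm9 positions are those of the array annotation. Of the 40 probes, 32 were matched by accession to RefSeq, each with the same symbol. The probes used for *Fyn*, *Plcg1*, *Grap2*, *Grb2*, *Nfatc2*, *Csk*, *Pag1* and *Cblb* were not matched. The alternatives tried were 2 other scalings, another background correction, the authors' table, other filters, marked spots kept, an intensity trend, the methods' unpaired test, replicate and slide blocks, averaging the tested probes of a gene, and leaving out each sample.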

Additional observations from a re-analysis of the deposited data

How the results depend on the processing

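With all samples, 461 of 480 values of the 40 genes under alternative settings kept their direction and their side of the threshold, and 19, of 8 genes with small differences or disagreeing probes, changed sign. With the mean of a gene's tested probes, the log2 fold change became 0.0168 for *Cblb*, -0.10 for *Nck1*, -0.68 for *Sos1* and -0.20 for *Ubash3a*, since the probes differ. With median scaling it became -0.0396 for *Lck*, -0.0163 for *Nfatc1*, -0.0123 for *Sos1*, -0.00141 for *Themis* and -0.0535 for *Ubash3a*. With normexp background correction it became -0.00147 for *Lck*, -0.0726 for *Nfatc1* and -0.0403 for *Themis*. With quantile normalization it became -0.0120 for *Nfatc1*, -0.000167 for *Plcg1* and -0.0190 for *Ubash3a*. With the authors' table it became -0.0498 for *Lck*, -0.0256 for *Nfatc1*, -0.0150 for *Plcg1* and -0.0254 for *Ubash3a*.

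With 1 sample left out, 133 of 160 values kept direction and side, 7 passed the threshold (those called without IEL replicate 2) and 20 of 13 genes changed sign. Over the 4 samples left out in turn, the log2 fold change ran from -1.29 to 0.00798 for *Cblb*, -0.29 to 0.12 for *Csk*, -0.10 to 0.66 for *Grap2*, -0.10 to 0.46 for *Icos*, -0.21 to 0.75 for *Lat*, -0.11 to 0.14 for *Lck*, -0.0599 to 0.25 for *Ptpn2*, -0.0824 to 0.17 for *Sos1*, -0.11 to 0.22 for *Themis*, -0.20 to 0.00225 for *Txk*, -0.16 to 0.17 for *Ubash3a*, -0.0656 to 0.67 for *Ubash3b* and -0.42 to 0.0209 for *Was*. The median of the 40 genes ran from -0.0526, without IEL replicate 1, to 0.0232. The number called ran from 0 to 2 for higher and 0 to 5 for lower genes, and over all probes from 0 to 2600 and 0 to 2933, each highest without IEL replicate 2.

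For the 100 other pathway genes the median of 0.00636 became -0.0336 with quantile normalization, -0.0494 with median scaling, -0.0105 with normexp, -0.0403 with the authors' table and 0.0206 after averaging the probes per gene. It ran from -0.0309 to 0.0662 with 1 sample left out. The number called ran from 0 to 9 for higher and 0 to 6 for lower genes, again highest without IEL replicate 2. The median of the 40 genes on slide 2 was -0.0028, and -0.109 with median scaling. The median of all probes shifted by over 0.1 with normexp (to 0.153) and with no filter (to 0.154). The causes of these shifts were not tested.

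The replicate numbers pair no samples by their labels, and deviations of same-numbered arrays correlated at -0.0251. With the replicate block limma called 0 of the 40 genes, with a smallest adjusted p of 0.138 over all probes, and gave 2 genes higher and 0 lower at an unadjusted p of 0.05. With the slide as a block it called 0, with a smallest adjusted p of 0.597. All 40 genes were well above background on all 4 arrays.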
